A study of Mus musculus with 12 samples.

Results

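The *Csmd* family comprises 3 mouse genes, *Csmd1*, *Csmd2* and *Csmd3*, and their SLM2 binding was described from the peaks of 2 merged eCLIP lists, 1 for whole brain and 1 for hippocampus. Members were chosen by peak position: a peak was taken when its centre lay in the GENCODE vM21 span of one of these genes and on its strand, and the family itself was picked from the number of *Csmd1* peaks in both lists. Of 2235 peaks in all, 61 met the rule. In whole brain these were 51 of 2057 peaks, 47 in *Csmd1*, 0 in *Csmd2* and 4 in *Csmd3*. In hippocampus they were 10 of 178, 9 in *Csmd1*, 1 in *Csmd2* and 0 in *Csmd3*. As a background, 1.92% of 21951 protein-coding genes held at least 1 whole-brain peak and 0.378% at least 1 hippocampal peak. Since peak counts chose the family, the counts are given as a description and no test was made on them.

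The CSMD proteins are very large membrane proteins of neurons and other cells, built from long runs of CUB and sushi domains. Sushi domains are the units of the proteins that regulate complement, and CSMD1 is known as an inhibitor of complement activation. In the brain, complement proteins mark synapses for removal by microglia, and regulators such as CSMD1 are thought to limit this. SLM2, the product of *Khdrbs3*, is a neuronal RNA-binding protein of the STAR family that controls alternative splicing of synaptic genes such as the neurexins and that recognises the tetramer UWAA (W is U or A).

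RNA cross-linked to SLM2 by UV light was pulled down with an SLM2 antibody and sequenced, along with size-matched input RNA from the same lysates. All mice were 30 days old. Wild-type whole brain and wild-type hippocampus each have 2 eCLIP and 2 input libraries, with 1 brain or 4 hippocampi per lysate, and the series further holds 4 libraries from *Slm2* KO hippocampus, not analysed here. The authors merged the 2 replicates of a tissue into 1 list, so a peak has 1 value per tissue and no spread between replicates. The hippocampal libraries went through more PCR cycles than those of whole brain, so tissue and library preparation cannot be told apart. The lists give no read counts, so the depth of the libraries and the depth behind a single peak are unknown. In such whole-tissue lysates, fewer cells of a type and less RNA per cell cannot be told apart.

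The sequences that the peaks turn on are printed here as RNA, 5′ to 3′ on the strand of the gene, from the GRCm38 genome (the build called mm10), with every UWAA in capitals. Overlapping copies run together, so that UUAAA holds 2 starts of UWAA. Peaks are numbered within a gene and tissue by falling log2 fold change of eCLIP over input. The first line is the strongest *Csmd1* peak of whole brain, the next the strongest of hippocampus, and the third the *Csmd1* peak with the most UWAA around its centre.
Csmd1 whole-brain peak 1, chr8:17432712-17432857, minus strand: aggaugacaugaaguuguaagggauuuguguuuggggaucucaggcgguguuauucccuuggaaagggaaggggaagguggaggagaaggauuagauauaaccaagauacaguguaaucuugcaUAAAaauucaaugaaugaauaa
Csmd1 hippocampal peak 1, chr8:17430661-17430751, minus strand: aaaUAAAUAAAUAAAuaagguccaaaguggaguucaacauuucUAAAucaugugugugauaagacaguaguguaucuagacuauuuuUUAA
Csmd1 whole-brain peak 23, chr8:17506448-17506529, minus strand: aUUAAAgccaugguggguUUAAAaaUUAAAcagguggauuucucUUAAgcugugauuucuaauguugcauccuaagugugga
The strongest whole-brain peak held 1 UWAA near its 3′ end and none within 50 nt of its centre, whereas peak 23 held 7 within its own 82 nt.

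The following lines are the stretches that each of the 9 hippocampal peaks of *Csmd1* shared with the whole-brain peak it overlapped most, in the order of transcription. A further 2 overlaps, of 10 nt and 3 nt, are not printed. Stretch 4 is part of whole-brain peak 1 and stretch 8 part of hippocampal peak 1, both printed above.
Stretch 1, chr8:17434539-17434660, minus strand: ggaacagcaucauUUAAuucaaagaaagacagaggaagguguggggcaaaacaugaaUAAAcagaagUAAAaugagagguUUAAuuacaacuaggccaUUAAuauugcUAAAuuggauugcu
Stretch 2, chr8:17434242-17434311, minus strand: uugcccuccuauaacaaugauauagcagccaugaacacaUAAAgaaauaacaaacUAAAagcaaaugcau
Stretch 3, chr8:17434092-17434171, minus strand: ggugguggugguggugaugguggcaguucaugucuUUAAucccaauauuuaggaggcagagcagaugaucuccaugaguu
Stretch 5, chr8:17432603-17432681, minus strand: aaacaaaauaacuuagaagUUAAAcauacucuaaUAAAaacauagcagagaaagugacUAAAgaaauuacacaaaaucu
Stretch 6, chr8:17432382-17432447, minus strand: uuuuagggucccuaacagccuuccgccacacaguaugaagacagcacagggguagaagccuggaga
Stretch 7, chr8:17431821-17431899, minus strand: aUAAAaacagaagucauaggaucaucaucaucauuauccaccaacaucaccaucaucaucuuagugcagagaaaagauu
Stretch 9, chr8:17430220-17430300, minus strand: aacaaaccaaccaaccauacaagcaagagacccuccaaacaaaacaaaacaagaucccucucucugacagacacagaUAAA
These stretches differed widely in motif content: stretch 1 held 6 UWAA in 122 nt and stretch 6 held 0 in 66 nt. Stretch 3 was repeat-masked over 100% of its 80 nt.

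The strongest peak of *Csmd3*, which was also its richest in UWAA, and the only peak of *Csmd2* are shown for comparison.
Csmd3 whole-brain peak 1, chr15:48102293-48102477, minus strand: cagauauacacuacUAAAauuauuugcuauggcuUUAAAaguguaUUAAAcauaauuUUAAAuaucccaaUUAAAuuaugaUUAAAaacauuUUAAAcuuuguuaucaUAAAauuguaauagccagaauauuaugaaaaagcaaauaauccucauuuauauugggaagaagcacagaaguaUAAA
Csmd2 hippocampal peak 1, chr4:128504544-128504656, plus strand: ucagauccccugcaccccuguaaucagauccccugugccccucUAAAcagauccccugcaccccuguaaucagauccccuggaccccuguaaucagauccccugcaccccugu
The *Csmd3* peak held 15 UWAA in 185 nt, 2 of the longer element UUWAAAA among them, and was 77.8% A or U. The *Csmd2* peak held 1 UWAA in 113 nt, was 42.5% A or U and read as a tandem repeat, in which 92.5% of bases equalled the base 46 nt further on. No other of the 61 peaks passed 52.8% by the same measure at its best spacing of 6 nt or more.

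*Csmd1* carried many more peaks than its relatives, in a longer gene. It spans chr8:15892537-17535586 on the minus strand, 1643 kb with 70 exons in its reference transcript, the protein-coding transcript with the most exons. Its 47 whole-brain peaks equalled 2.86 per 100 kb and its 9 hippocampal peaks 0.548 per 100 kb. *Csmd3*, chr15:47580637-48792063 on the minus strand, is 1211 kb long and had 0.330 and 0 per 100 kb. *Csmd2*, chr4:127987857-128567656 on the plus strand, is 579.8 kb long and had 0 and 0.172. No peak of either list lay on the opposite strand within the span of any of the 3 genes. Long genes are often in these lists. Of 230 protein-coding genes of at least 500 kb, 45.7% were in the whole-brain list and 14.8% in the hippocampal list, with medians among those of 0.383 and 0.178 peaks per 100 kb. By density among the 230, *Csmd1* stood at rank 16 in whole brain and rank 2 in hippocampus, where only *Syt1*, which encodes the calcium sensor of synaptic vesicle release, was denser. *Csmd3* stood at rank 59 in whole brain, and *Csmd2* at rank 19 in hippocampus with its 1 peak.

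**Figure D1:**
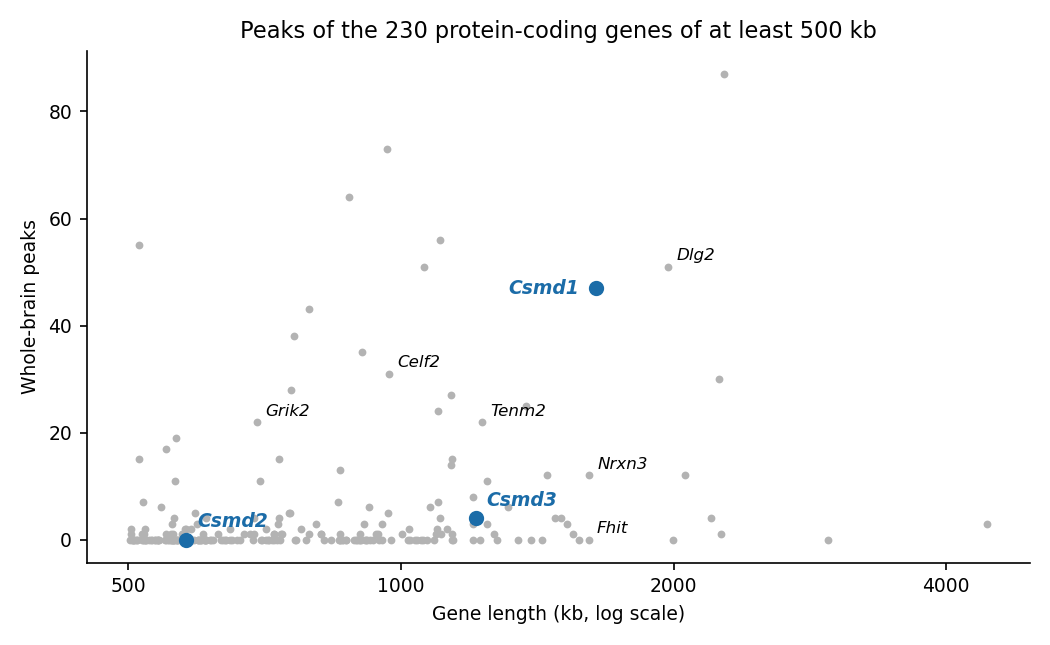
Whole-brain peaks (vertical axis) against gene length in kb (log scale) for the 230 protein-coding genes of at least 500 kb, 1 point per gene, with the *Csmd* genes in blue. *Csmd1* lies at 47 peaks, while *Csmd3* at 4 and *Csmd2* at 0 lie among the many long genes near the bottom.

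Genes of like length had few peaks for the most part. Of the 5 protein-coding genes closest to *Csmd1* in length, *Nrxn3*, which encodes a presynaptic adhesion molecule, had 12 whole-brain and 2 hippocampal peaks. *Rbfox1*, a splicing regulator, had 3 and 1, the cadherin gene *Pcdh15* had 1 and 0, and *Fhit* and *Ctnna3* had 0 in both. Near *Csmd3* in length, the teneurin gene *Tenm2* had 22 and 1, *Ccser1* 8 and 0, the kinase gene *Prkg1* 3 and 0, and *Nkain2* 0 in both. Near *Csmd2*, the adhesion gene *Dscam* and the ankyrin gene *Ank2* had 2 whole-brain peaks each, and *Sema6d*, *Cadps2* and *Zfp804b* had 0, with 0 in hippocampus for all 5. The pair of densities most like that of *Csmd1*, by distance over both tissues among genes of at least 500 kb, belonged to the kainate receptor gene *Grik2* (3.17 and 0.432 peaks per 100 kb). The potassium channel gene *Kcnd2* (2.92 and 0.194), the scaffold gene *Dlg2* (2.59 and 0.253), the RNA-binding protein gene *Celf2* (3.20 and 0.309) and the glutamate receptor gene *Grm5* (3.09 and 0.182) followed.

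Within *Csmd1* the peaks lay toward the 5′ end and in introns only. All 47 whole-brain centres were intronic in *Csmd1* (100%, exact 95% interval 92.5 to 100), and so were all 9 in hippocampus. The interval covers counting error only and is too narrow, because peaks of 1 gene are not independent. Of the 2006 whole-brain peaks outside the family, 96.2% were intronic. Intron 1, of 318 kb and 19.4% of the gene, held 36 whole-brain peaks or 11.3 per 100 kb. Intron 3, nearly as long at 317 kb, held 8 or 2.53 per 100 kb. Intron 2 held 1 and intron 5 held 2, and none lay 3′ of these, where most of the exons lie. Of the whole-brain peaks, 37 lay in the first 25% of the gene from its 5′ end, 8 in the next 25%, 2 in the next and 0 in the last. The median distance to the nearest exon of any *Csmd1* transcript was 40.0 kb and the shortest 2.37 kb, for peak 27 (chr8:17024811-17024896, log2 fold change 2.55, −log10 p 9.52). Whole-brain peaks outside the family had a median of 23.8 kb, and the intronic ones among them 26.0 kb. The *Csmd1* median rested on a cluster of 24 peaks in intron 1, without which it was 28.8 kb, and with exons of the reference transcript alone it was 102 kb.

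**Figure D2:**
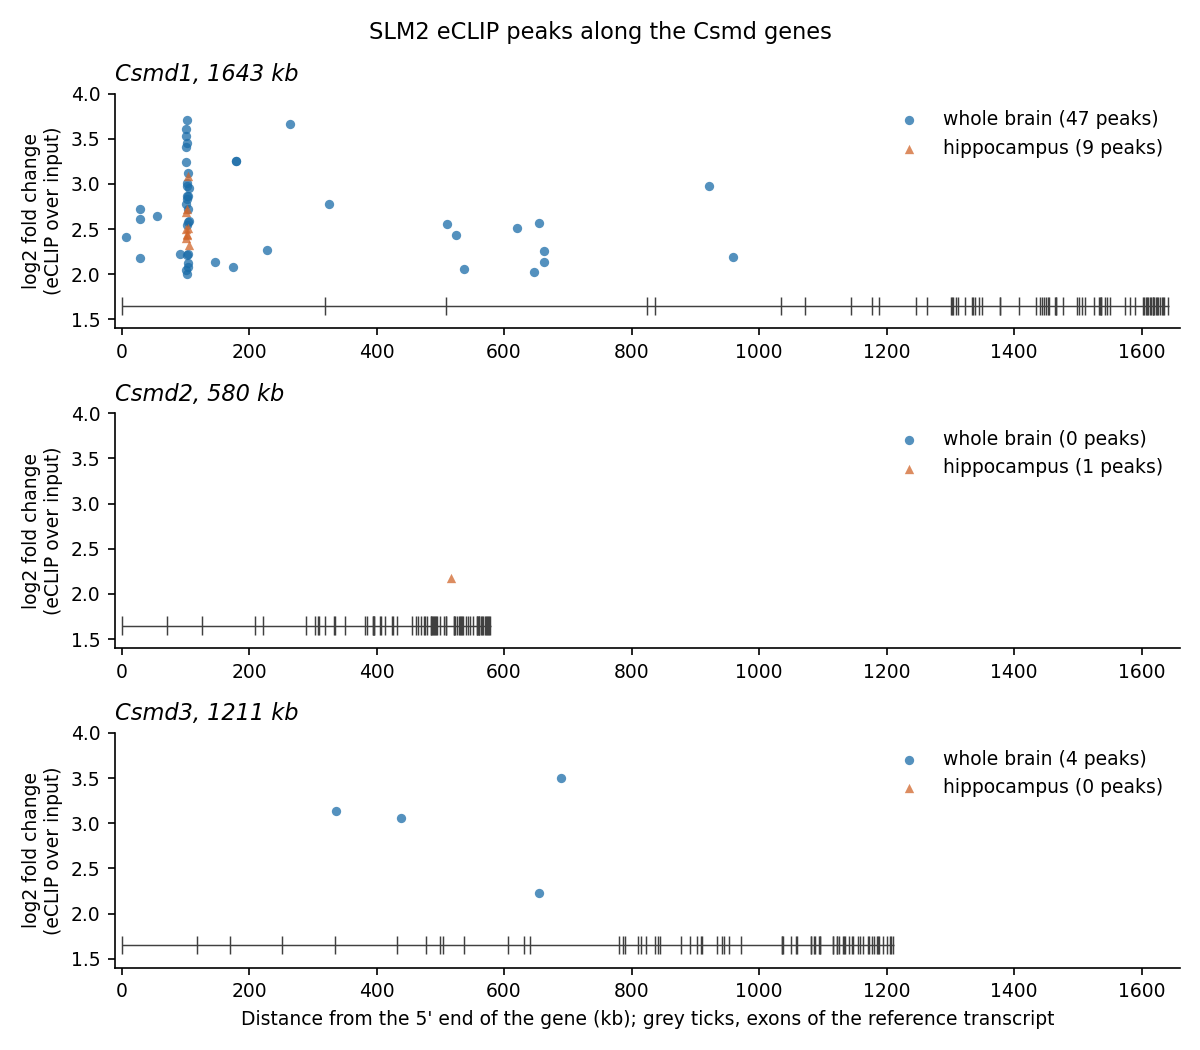
Peaks along each *Csmd* gene, with distance from the 5′ end of the gene in kb on the horizontal axis and log2 fold change of eCLIP over input on the vertical axis; circles are whole-brain peaks, triangles hippocampal peaks and grey ticks the exons of the reference transcript. The *Csmd1* peaks pile up near 100.3 kb from the 5′ end, and the region with closely spaced exons has none.

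The annotation of this region differs between sources. RefSeq places a predicted gene of 1 exon, *C030002A05Rik*, at chr8:17353634-17492395 on the same strand inside intron 1 of *Csmd1*. It is 139 kb long and was built by the Gnomon predictor. Of the *Csmd1* peaks, 30 of 47 in whole brain and all 9 in hippocampus had their centre in it, so these are intronic in GENCODE vM21 and exonic in that RefSeq model. Without them *Csmd1* kept 17 whole-brain peaks and 0 hippocampal peaks. To which transcript the bound RNA belonged was not tested. GENCODE has a further same-strand gene of 3.48 kb and 1 exon, *3110080E11Rik*, which holds peak 29 (chr8:16914849-16915006, log2 fold change 2.51). Peak 29 is thus intronic in *Csmd1* and exonic in *3110080E11Rik*.

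A cluster inside intron 1 held a large share of the *Csmd1* peaks. When whole-brain peaks at most 1000 nt apart were joined, the 47 *Csmd1* peaks fell into 20 groups, and 1 of these held 24 peaks (51.1%) at chr8:17429532-17435240. This cluster was singled out after its values were seen. Its 5.71 kb make up 0.347% of the gene, begin 100.3 kb from the 5′ end of the gene, and hold all 9 hippocampal peaks of *Csmd1*. The nearest exons in GENCODE lie 99.7 kb upstream and 36.9 kb downstream, and no GENCODE exon lies inside it. Among the 1510 whole-brain groups, 3 held 10 peaks or more: this one, 1 in *Rbfox3* with 12 and 1 in *Nrxn2* with 10. Of 24 protein-coding genes with at least 20 whole-brain peaks, *Csmd1* had the highest share of its peaks in 1 group, and *Mdga2*, which encodes a synaptic adhesion regulator, was next with 9 of 28 (32.1%). The median of the 24 was 12.6%. In hippocampus the 9 *Csmd1* peaks fell into 3 groups. Among 7 protein-coding genes with at least 4 hippocampal peaks, *Csmd1* stood at rank 3 with 4 of 9 in 1 group (44.4%). It came behind *Rock1* with 5 of 5 and *Epha6* with 2 of 4. The *Rock1* group spans 0.065 kb, where the gene *Gm26244* is also annotated. How many separate binding events the peaks stand for was not tested, and 6 of the 46 gaps between neighbouring *Csmd1* peaks in whole brain were 1 nt wide. With peaks at most 100 nt apart counted as 1, *Csmd1* had 33 in whole brain and 7 in hippocampus.

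**Figure D3:**
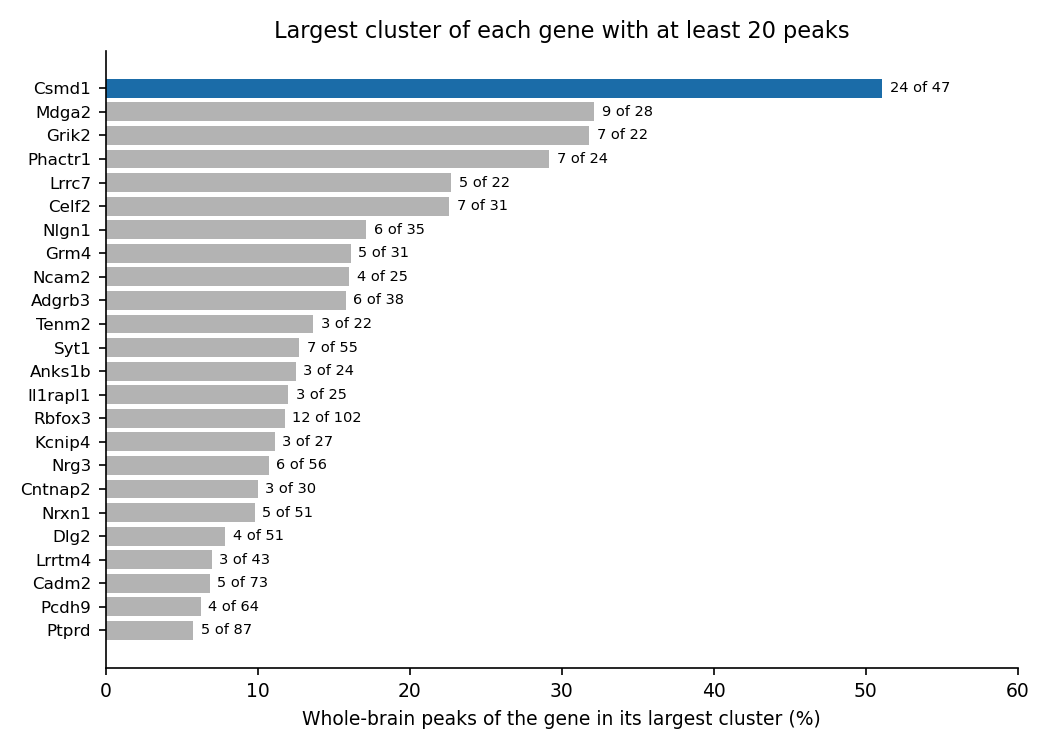
Share of the whole-brain peaks of a gene that lie in its largest cluster (%, bars from 0), for the 24 protein-coding genes with at least 20 whole-brain peaks; labels give peaks in the cluster of all peaks. *Csmd1*, in blue, has 24 of 47 peaks in 1 cluster, against a median of 12.6% over the 24 genes.

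Peaks of the cluster had lower p than the others of *Csmd1*. Their median −log10 p was 9.26 (5.77 to 22.7, 24 peaks), against 4.34 (2.91 to 13.7) for the 23 whole-brain peaks elsewhere in *Csmd1* and 4.26 for 1929 intronic peaks outside the family. The median log2 fold change was 2.85 (2.00 to 3.71) inside the cluster, 2.43 (2.02 to 3.66) elsewhere in *Csmd1* and 2.55 for the other intronic peaks. The ranges overlapped almost wholly on the fold scale and in part on the p scale. The cluster peaks were of ordinary length, with a median of 97 nt against 92 nt elsewhere in *Csmd1* and 107 nt in the other intronic peaks. Whole-brain peaks covered 2758 nt or 48.3% of the cluster and hippocampal peaks 882 nt or 15.4%, of which 796 nt (90.2%) were also under a whole-brain peak.

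**Figure D4:**
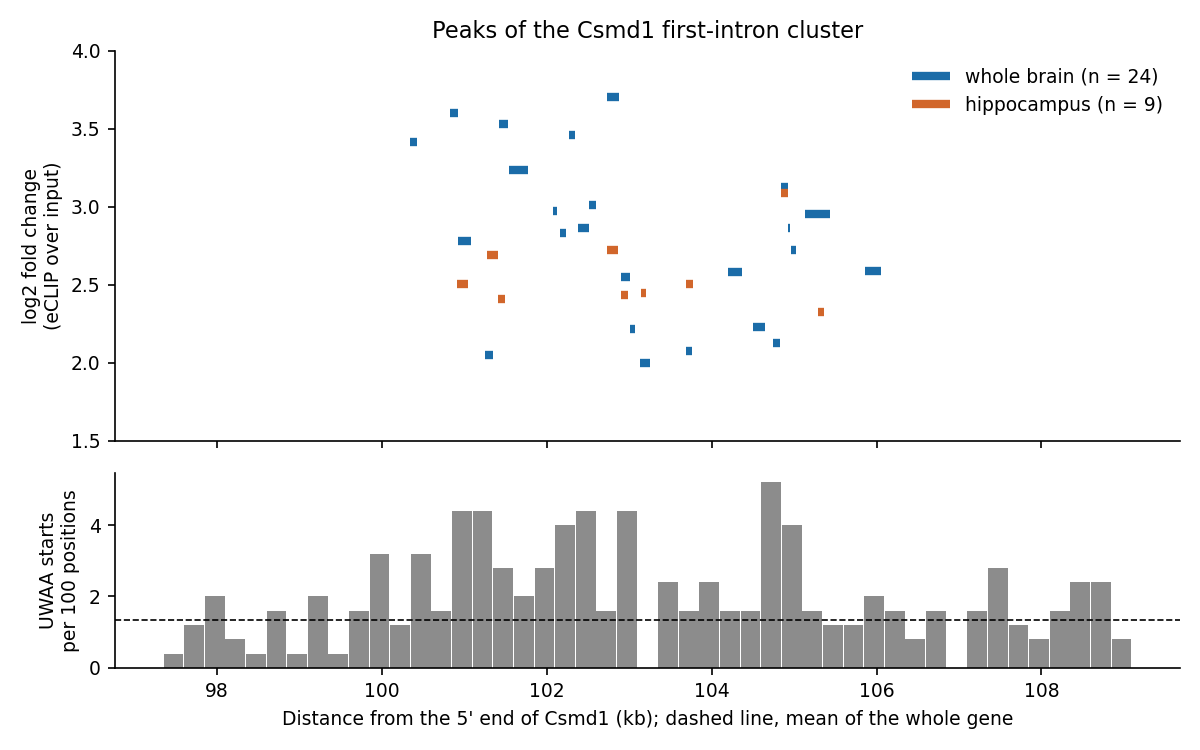
The *Csmd1* cluster, with distance from the 5′ end of the gene in kb on the horizontal axis. Upper panel, log2 fold change of each peak, drawn over the length of the peak, in whole brain (24, blue) and hippocampus (9, orange); lower panel, UWAA starts per 100 positions in 250-nt bins with the mean of the whole gene, 1.33, as a dashed line. The hippocampal peaks lie between 2.33 and 3.09, inside the whole-brain range of 2.00 to 3.71, and most bins under the cluster stand above the dashed line.

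The 5 strongest whole-brain peaks of *Csmd1* lay in the cluster, with 1 exception. Peak 1, printed above, had a log2 fold change of 3.71 and a −log10 p of 19.0 and stood at rank 102 of the 2057 whole-brain peaks by fold change and rank 27 by p. Peak 2 (chr8:17271228-17271292) was the exception, 264 kb from the 5′ end, with 3.66 and 4.06. Peak 3 (chr8:17434662-17434756) had 3.60 and 18.9, peak 4 (chr8:17434052-17434171) 3.53 and 22.0, and peak 5 (chr8:17433243-17433313) 3.46 and 10.7. The lowest p of the gene belonged to peak 9 (chr8:17433813-17434050), with a log2 fold change of 3.24 and a −log10 p of 22.7, rank 15 by p. Peaks 7 and 8, separated by 1 nt at chr8:17356093-17356182 and chr8:17356184-17356216, had the same fold change (3.25) and the same −log10 p (13.7). At the other end, peak 47 (chr8:17432335-17432452) had a log2 fold change of 2.00 and peak 33 (chr8:16872298-16872373) a −log10 IDR of 2.00, just inside the authors' thresholds of 2, below which peaks were not analysed here.

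Each of the 9 hippocampal peaks of *Csmd1* shared bases with one from whole brain, strand considered. Of the 168 hippocampal peaks outside the family, 27.4% did so, and of the 117 intronic ones among them 36.8%. All 9 *Csmd1* peaks lay in the cluster, of which whole-brain peaks covered 48.3%. In the other direction 11 of the 47 *Csmd1* whole-brain peaks (23.4%) touched a hippocampal peak, beside 2.39% of the 2006 outside the family. Since the family was picked for peaks in both lists, this is a description. Stretch 3 showed the widest gap, with log2 fold changes of 3.53 in whole brain and 2.41 in hippocampus. Stretch 4 had 3.71 and 2.73, stretch 9 had 2.95 and 2.33, and stretch 1 had 2.78 and 2.50. Stretches 5 and 8 were close to equal, at 2.55 and 2.43 and at 3.12 and 3.09. The order turned in the other 3: stretch 2 had 2.05 in whole brain and 2.69 in hippocampus, stretch 6 had 2.00 and 2.45, and stretch 7 had 2.08 and 2.51. The fold change was thus higher in whole brain in 6 of these 9 pairs, with a median difference of 0.12 (−0.64 to 1.12) and no replicate spread to set it against. The 9 pairs take the whole-brain peak with the most shared bases. The further 2 overlaps joined whole-brain peak 3 to hippocampal peak 5, at 3.60 and 2.50, and whole-brain peak 15 to hippocampal peak 1, at 2.86 and 3.09, so that whole brain was higher in 7 of all 11 overlapping pairs. The hippocampal calls rested on weak p: −log10 p ran from 1.08 to 2.31, and 7 of the 9 were below 2, as were 87 of the 168 other hippocampal peaks (51.8%) and none in whole brain.

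UWAA was denser at the *Csmd1* peaks than beside them. Counted on the strand of the gene, the density was 3.97 starts per 100 positions in windows reaching 50 nt to either side of the 47 whole-brain centres (exact 95% interval 3.43 to 4.58, counting error only) and 2.20 (1.91 to 2.52) in flanks 450 to 550 nt away. Windows of neighbouring peaks overlap, so some positions entered more than once and the intervals are too narrow. The 1929 intronic peaks outside the family had 3.62 and 1.80. Repeat-masked bases passed 20% in 22 of the 47 *Csmd1* windows and in 995 of the 1929. Without windows over 20% masked, the *Csmd1* density was 3.39 (2.71 to 4.18) at the peaks and 1.90 (1.52 to 2.36) in the flanks. The 3.62 and 1.80 keep such windows. Over the whole gene the density was 1.33 in *Csmd1*, 0.746 in *Csmd2* and 1.89 in *Csmd3*. The density at the peak was above that of its own flanks in 31 *Csmd1* peaks, below in 15 and equal in 1. Among the 1929 other intronic peaks it was above in 1295, below in 447 and equal in 187. The window held 1 UWAA or more in 41 of the 47 *Csmd1* peaks (87.2%, 74.3 to 95.2). The share was 83.8% in the other intronic peaks and 61.2% in all consecutive windows of 101 nt in the gene. The 6 *Csmd1* peaks without one included peaks 1 and 5, among the 5 strongest. UAAA contributed 2.54 and UUAA 1.43 per 100 positions. The 8 tetramers that hold the same letters as UUAA or UAAA in another order ran from 0.868 to 2.56, the highest being AAAU, so that UAAA was not set apart from AAAU, a tetramer with which it overlaps. The mean over these 8 tetramers was 1.48 at the *Csmd1* peaks and 0.875 in the flanks, so they too were denser at the peaks. In the 1929 other intronic peaks this mean was 1.27 and 0.831. Whether UWAA rose beyond other tetramers of the same letters was not tested. The *Csmd1* windows were 66.8% A or U at the peaks and 62.8% in the flanks.

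The motif content around the peaks was also read separately for the cluster and the rest of *Csmd1*. The 24 cluster peaks had 3.57 UWAA per 100 positions at the centre (2.86 to 4.40) and 2.30 in the flanks (1.89 to 2.77). The 23 peaks elsewhere had 4.39 (3.58 to 5.32) and 2.11 (1.71 to 2.57), so the intervals of both measures overlapped between the 2 sets. In the cluster, 35 of 48 flank windows touched another peak, against 2 of 46 elsewhere, and without such windows the flank density of the cluster was 1.57 (0.961 to 2.41). Across its whole length the cluster held 151 UWAA or 2.65 per 100 positions, and none of the 53 other tiles of the same length in intron 1 reached this (median 1.42, highest 1.95). UWAA stood at 2.86 per 100 nt under the whole-brain peaks of the cluster and at 2.44 per 100 nt between them, so that 52.3% of its UWAA lay under the 48.3% of its length that peaks covered. The cluster was also 64.2% A or U, a share that 3 of the 53 tiles passed, and 30.6% repeat-masked, which 7 tiles passed. How far base composition and repeats account for the motif count was not tested. No peak of the family held 10 nt or more of the sequencing adaptors, which 20 other whole-brain peaks did.

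**Figure D5:**
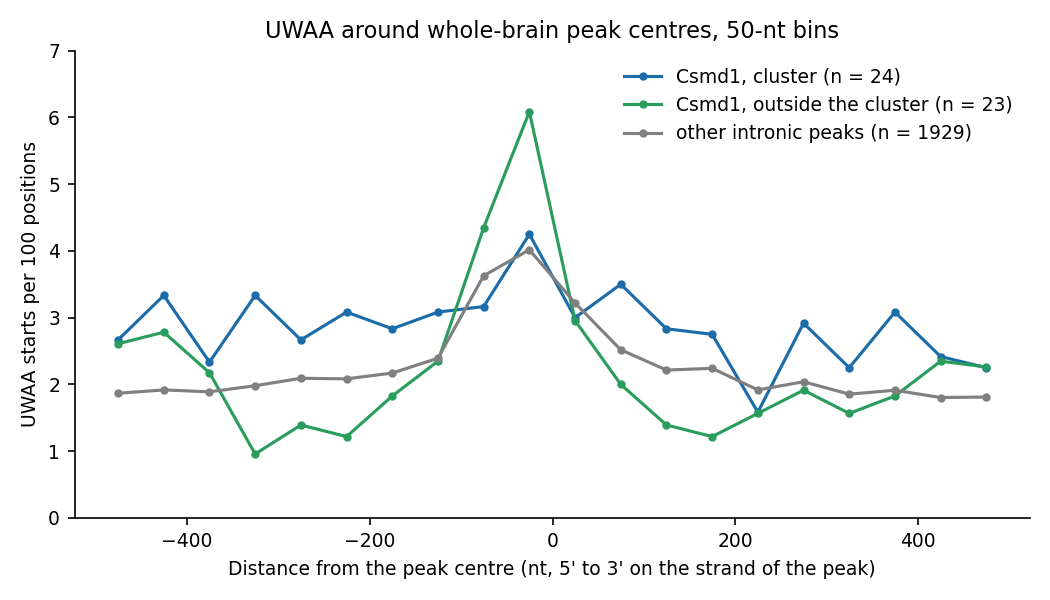
UWAA starts per 100 positions (vertical axis) in 50-nt bins from 500 nt upstream to 500 nt downstream of the centre of whole-brain peaks, for the 24 cluster peaks of *Csmd1*, the 23 *Csmd1* peaks outside the cluster and 1929 intronic peaks outside the family. Peaks outside the cluster rise to 6.09 just upstream of the centre, the other intronic peaks to 4.02 and the cluster peaks to 4.25, with neighbouring bins of the cluster mostly between 2.25 and 3.50.

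Single *Csmd1* peaks ranged from 0 to 9 UWAA within 50 nt of the centre, with a median of 4. Peak 23, printed above, had the 9, with a log2 fold change of 2.62 and a −log10 p of 5.31. Peak 27, the closest to an exon, had 8. The longer element UUWAAAA lay within 50 nt of 12 of the 47 centres (25.5%), beside 18.9% of the other intronic peaks and 5.50% of all windows of 101 nt in *Csmd1*. The strongest *Csmd1* peak with it was peak 10 (chr8:17430665-17430741), with a log2 fold change of 3.12 and a −log10 p of 12.7, which overlaps hippocampal peak 1. In hippocampus the 9 *Csmd1* peaks had 3.06 UWAA per 100 positions (2.03 to 4.42) and 2.10 in the flanks, with 5 peaks above their flanks and 4 below. Hippocampal peaks 2 and 6 had 0, and hippocampal peak 1 had 8, the highest. Repeat-masked bases made up 40.5% of these windows, and 8 of the 9 passed 20%. The 117 intronic hippocampal peaks outside the family had 2.96 UWAA per 100 positions and 1.71 in the flanks. Of these, 59 were above their flanks, 44 below and 14 equal. Their windows were 41.4% repeat-masked, and 76 of the 117 passed 20%.

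*Csmd3* had 4 whole-brain peaks, scattered over the middle of the gene. Peak 1, printed above, lay in intron 13 with a log2 fold change of 3.50 and a −log10 p of 6.32. Peak 2 (chr15:48454929-48455018) lay in intron 5, 2.52 kb from the nearest exon, with 3.13 and 3.36. Peak 3 (chr15:48354403-48354519) lay in intron 6 with 3.06 and 2.98, and peak 4 (chr15:48137459-48137541) in intron 13 with 2.23 and 4.53. None had a −log10 IDR above 2.40, while 25 of the 47 *Csmd1* peaks reached 3. UWAA in the 4 windows stood at 6.63 per 100 positions (4.38 to 9.57) and at 2.68 in the flanks, with all 4 above their flanks. Repeat-masked bases passed 20% in 3 of the 4 windows, and without these the density was 4.08 (1.12 to 10.1). The 4 peaks held 11, 8, 4 and 3 UWAA within 50 nt of the centre. The gaps between these peaks were at least 34981 nt wide, so that *Csmd3* had no cluster.

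The 1 hippocampal peak of *Csmd2* was weak on each measure. It lay in intron 44, 3.42 kb from the nearest exon, with a log2 fold change of 2.18, a −log10 p of 0.836 and a −log10 IDR of 2.41. By fold change it stood at rank 142 of the 178 hippocampal peaks. UWAA stood at 1.02 per 100 positions in its window and at 0.510 in the flanks. The tandem repeat seen in its sequence was not examined for how uniquely reads map to it.

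Other genes of complement or of CUB and sushi proteins were searched for peaks as well. Of 21 genes for complement components found in the annotation and of 7 for complement receptors, 0 held a peak in either tissue. Of 16 complement regulators outside the family, 1 held a whole-brain peak: *Cd46*, which encodes a membrane cofactor that inactivates bound complement, had 1 peak with a log2 fold change of 3.57 and a −log10 p of 8.13. Of 19 other genes with CUB or sushi domains that act in the nervous system, 2 held whole-brain peaks. *Sez6l*, a relative of the seizure-related gene *Sez6*, had 2 peaks, the stronger at 3.89, and *Neto1*, an auxiliary subunit of kainate receptors, had 2, the stronger at 3.06. In all, 3 of 63 genes were in the whole-brain list and 0 in the hippocampal list. The whole-brain share was thus not below the 1.92% of all protein-coding genes, though 63 genes are few. Of the 3 genes, only *Cd46* came from the complement lists. In hippocampus 0.378% of all protein-coding genes held a peak, so 0 among 63 genes says little. These genes are far shorter than the *Csmd* genes, with median lengths of 12.9 kb for the components, 21.1 kb for the receptors, 25.4 kb for the regulators and 70.0 kb for the CUB or sushi genes, among which *Sez6l* is 158 kb and *Neto1* 112 kb long, and the share is to be read beside the 1.92% of all protein-coding genes given above.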

How the data were processed

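SLM2 eCLIP and size-matched input libraries of wild-type whole brain and hippocampus (2 and 2 each) were used through the authors' merged peak lists. Per the submitters' processing notes, reads passed through cutadapt 3.4, STAR 2.7.9 and UMI-tools 1.1.1. The authors called peaks with CLIPper in mm10, merged replicates by IDR and kept peaks of at least 2 in log2 fold change and −log10 IDR. The deposited log2 fold change is eCLIP over input, the deposited −log10 p compares eCLIP with input, and the deposited −log10 IDR is a score of reproducibility. Column meanings follow the study's peak table, since the lists carry no headers.

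Peaks were placed by centre and strand on GENCODE vM21. The spliced reference transcripts read from GRCm38 equalled those of GENCODE in all 3 genes. Feature and exon distance refer to the longest gene that holds the centre. Windows of 101 nt, repeat-masked or not, were searched for UWAA on the RNA strand. Peaks at most 1000 nt apart were joined into clusters. Intervals are exact (Clopper-Pearson, 95%). The genes, gene lists and named peaks (per gene and tissue the 5 strongest, the closest to an exon, the richest in UWAA or UUWAAAA and those shared by tissues; other genes by closeness in length or peak density) were chosen with earlier results of these data known. A gene that the rule on length also named is not reported here. Further peaks and the cluster were singled out after their values were seen. No test was made, since peak counts chose the family. Counting procedures were tested on simulated data. Analyses used Python 3.11.15, numpy 2.4.6, pandas 2.3.3, scipy 1.17.1, pysam 0.24.0, matplotlib 3.10.9 and samtools 1.23.1.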

Additional observations from a re-analysis of the deposited data

How the results depend on the processing

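Of 98 alternative values, 69 stayed within 1.5 times a count or within the 95% interval of a share, density or median, and 29 moved. The tally is no measure of stability, since part of the 69 could not move. A count of 0 stays 0 under a stricter threshold, and no peak of the family held adaptor sequence to leave out. With all *Csmd1* peaks intronic, any subset of them is too. A rise of the median fold change under a fold threshold is likewise fixed by that threshold. With a log2 fold change of at least 3, *Csmd1* kept 11 whole-brain and 1 hippocampal peak, *Csmd2* 0, the median fold change rose to 3.41, the hippocampal UWAA density was 8.16, and 1 hippocampal peak still overlapped a whole-brain peak. With a −log10 IDR of at least 3, *Csmd1* kept 25 and 3, *Csmd2* and *Csmd3* 0, the median was 2.86, the hippocampal density 5.44 and the overlap 3. With a −log10 p of at least 3, the hippocampal counts of *Csmd1* and *Csmd2* were 0, which left no hippocampal density or overlap. Leaving out windows over 20% masked gave 3.39 at and 1.90 beside *Csmd1* peaks. It gave 4.08 at *Csmd3* peaks and 0 at hippocampal *Csmd1* peaks, with 1 window left in each case. Flanks centred 1000 nt away had 1.86. Exons of the reference transcript alone put the median distance at 102 kb (101.7 kb). Chosen after seeing the data, joining peaks within 1 kb gave *Csmd1* 20 and 3, leaving out *C030002A05Rik* 17 and 0, leaving out the cluster 23 and 0 with a median distance of 28.8 kb, and leaving out flanks that touch a peak 1.86. Leaving out a replicate was not possible, since the lists merge them. No paired analysis was possible because no test was made and the merged columns carry no replicate numbers.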
